A study of Rattus norvegicus with 24 samples.

Results

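The genes described here are 5 antioxidant enzymes of the rat, which were taken by their Ensembl identifiers from the 16478 genes of the deposited TPM table. They are Hmox1 (ENSRNOG00000014117), Nqo1 (ENSRNOG00000012772), Sod1 (ENSRNOG00000002115), Sod2 (ENSRNOG00000019048) and Cat (ENSRNOG00000008364). All 5 were present in the table and passed the filter on low values, a mean of 1 TPM or more in a group of each comparison. TPM, the unit of the table, is a share of all transcripts in which the length of each transcript is taken out. Neural progenitor cells from E15 Sprague Dawley fetuses were grown as neurospheres (NSps), free-floating spheres of progenitors and their progeny, with epidermal and fibroblast growth factors in all groups. The groups were untreated NSps (C), NSps given 5 µM of recombinant Noggin, a secreted inhibitor of BMP signaling (N), NSps given 200 µM ascorbic acid (A), and each of these exposed to 1 Gy of X-rays on day 3 after seeding (CGy, NGy and AGy). Noggin and ascorbic acid were added to the medium before radiation and again after it. According to the study, RNA was taken days after the time of radiation. It was sequenced from polyA-selected libraries of 4 samples in each group. The labels do not say that samples of a group came from separate litters or cultures, so p-values measure the spread between these samples, which may be technical.

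Cells that use oxygen make superoxide, which the superoxide dismutases convert to hydrogen peroxide. Sod1 is the copper and zinc enzyme of the cytosol, and Sod2 is the manganese enzyme of the mitochondrial matrix. Catalase (Cat), a peroxisomal enzyme, breaks hydrogen peroxide down to water and oxygen. Hmox1 degrades heme to biliverdin, iron and carbon monoxide, and Nqo1 reduces quinones directly to hydroquinones. Hmox1 and Nqo1 are standard targets of the transcription factor NRF2, which binds antioxidant response elements. Ionizing radiation forms reactive oxygen species in water, and ascorbic acid is a scavenger of them. The comparisons address whether NSps exposed to 1 Gy differ in the RNA of these enzymes and whether ascorbic acid or Noggin, given as possible protection, alters this.

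The promoters of Nqo1, Sod1 and Sod2 are shown because these 3 genes were higher after radiation over the 3 media. RefSeq promoter sequences of build GRCr8 were matched by symbol for 4 of the 5 genes (Nqo1, Sod1, Sod2 and Cat), and the 250 bases before the annotated start are given 5′ to 3′ on the strand of the gene. Capitals mark the motifs found: TATAAA in Nqo1 and Sod1, and in Sod2 the core of the antioxidant response element, TGACNNNGC, on the other strand, where it reads GCNNNGTCA. The Nqo1 window is chr19:52220268-52220517 (minus strand), the Sod1 window is chr11:42942573-42942822 (plus strand) and the Sod2 window is chr1:50050169-50050418 (minus strand).
Nqo1: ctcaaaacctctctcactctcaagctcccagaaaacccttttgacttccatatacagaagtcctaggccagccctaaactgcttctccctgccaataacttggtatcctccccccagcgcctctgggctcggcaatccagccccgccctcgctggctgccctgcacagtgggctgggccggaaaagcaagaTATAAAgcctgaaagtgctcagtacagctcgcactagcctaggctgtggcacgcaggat
Sod1: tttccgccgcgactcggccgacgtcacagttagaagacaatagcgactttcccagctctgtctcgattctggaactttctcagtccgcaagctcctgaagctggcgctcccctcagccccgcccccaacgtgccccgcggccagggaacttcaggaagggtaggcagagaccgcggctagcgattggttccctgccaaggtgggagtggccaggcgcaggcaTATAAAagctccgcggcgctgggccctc
Sod2: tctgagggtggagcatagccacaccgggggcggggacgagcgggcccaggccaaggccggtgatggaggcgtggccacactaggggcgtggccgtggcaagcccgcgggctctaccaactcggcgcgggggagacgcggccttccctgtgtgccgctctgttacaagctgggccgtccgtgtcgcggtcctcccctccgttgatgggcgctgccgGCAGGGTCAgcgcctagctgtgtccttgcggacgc
In Nqo1 the TATAAA ran from base 59 to base 54 before the start, and in Sod1 from base 28 to base 23. The match in Sod2 ran from base 35 to base 27 before the start. The element core was not found in the windows of Nqo1, Sod1 or Cat, and Hmox1 had no promoter sequence to search. Bases farther upstream were not searched. On either strand, 10.1% of 33469 promoter windows of this length held the antioxidant response element core, and 12.9% held TATAAA, which was searched for after the sequences had been seen. TGANTCA, the site of AP-1 factors, was in 6.34% of windows and in none of the 4. GC content was 56.4% in Nqo1, 63.2% in Sod1, 71.6% in Sod2 and 58.8% in Cat, and the median over all windows was 51.2%. A motif match is a description of letters and not of a bound site.

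Over 23 samples, the 5 enzymes differed widely in level, and Nqo1, the lowest, differed most between groups. The control sample MO2 stood apart from all others and was left out of group means, as in the study. The median gene of MO2 was at 1.32 TPM, and that of the remaining samples ranged from 2.57 to 3.20 TPM. In MO2, Cat was at 11.6 TPM against 40.65 to 49.96 in the other control samples, and Sod1 at 468 TPM against 252 to 285. Sod2 was at 22.6 TPM in MO2 against 29.8 to 30.9 in the other controls, Nqo1 at 10.2 TPM against 3.98 to 6.95, and Hmox1 at 55.8 TPM against 36.4 to 46.3. All 5 genes of MO2 thus lay outside the range of the other control samples, 3 of them above it and 2 below. The mean of the 6 group means was 300.4 TPM for Sod1, which lay above 98.4% of all genes listed. It was 51.6 TPM for Hmox1, 50.7 TPM for Cat and 32.4 TPM for Sod2. For Nqo1 it was 8.36 TPM, above 60.6% of genes. The highest group mean exceeded the lowest 1.97 times for Nqo1, 1.49 times for Hmox1, 1.48 times for Sod2, 1.26 times for Sod1 and 1.16 times for Cat. Read counts cannot be had from TPM, so the depth behind these values is unknown.

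**Figure D1:**
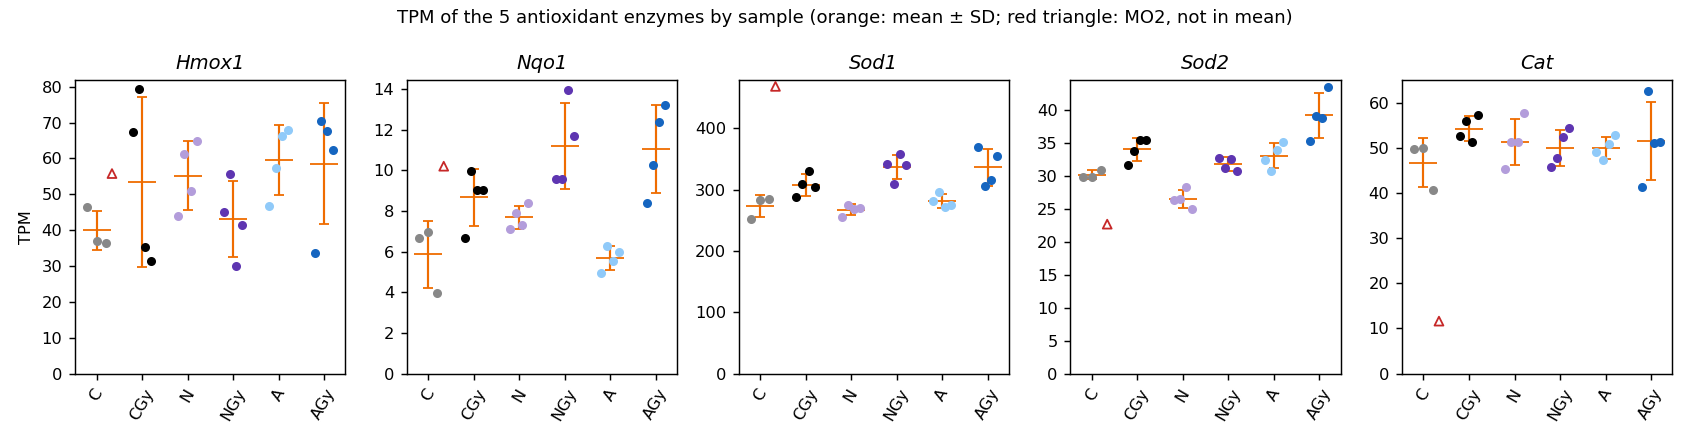
Each panel plots the TPM of 1 enzyme in every sample of the 6 groups. Points are samples, orange bars are the mean ± SD (n = 3 in C, n = 4 in the others), and red triangles are the control sample MO2, which is in no mean. In Sod1 and Sod2, every irradiated sample lies above the unirradiated samples of the same medium, except for MO2 in Sod1, while the points of Hmox1 spread from 29.9 to 79.5 TPM.

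The cytosolic dismutase Sod1 was higher in every irradiated sample than in any unirradiated sample of the same medium, the control MO2 excepted. Untreated NSps had 252, 283 and 285 TPM, and CGy had 287, 309, 329.5 and 304 TPM. N had 255, 275, 269 and 270.5 TPM, and NGy had 342, 309, 357 and 339 TPM. A had 282, 296, 271 and 276 TPM, and AGy had 369, 305, 316 and 354 TPM. Thus none of the 3 pairs overlapped, although the lowest CGy sample (287 TPM) exceeded the highest control (285 TPM) by less than the spread in either group. In group means, Sod1 was 308 ± 17.5 TPM in CGy against 273 ± 18.6 in C, 337 ± 20.3 in NGy against 267 ± 8.64 in N, and 336 ± 30.5 in AGy against 281 ± 11.0 in A (SD, n = 4, n = 3 in C). The mean was 12.6% higher in CGy than in C, 26.0% higher in NGy than in N and 19.6% higher in AGy than in A. In bulk RNA, fewer cells of a type and less RNA per cell cannot be told apart, here and in all comparisons that follow.

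The mitochondrial dismutase Sod2 had the same order within each medium. C had 29.8, 29.8 and 30.9 TPM, and CGy had 31.6, 33.7, 35.3 and 35.3 TPM. N had 26.3, 26.5, 28.2 and 24.9 TPM, and NGy had 32.7, 31.1, 32.6 and 30.7 TPM. A had 32.3, 30.8, 33.9 and 35.1 TPM, and AGy had 35.3, 38.97, 38.7 and 43.5 TPM. None of the 3 pairs overlapped, and the lowest AGy sample was within 1 TPM of the highest A sample. The means were 34.0 ± 1.79 TPM in CGy and 30.1 ± 0.625 in C, 31.8 ± 1.03 in NGy and 26.5 ± 1.33 in N, and 39.1 ± 3.35 in AGy and 33.0 ± 1.90 in A. Sod2 varied little within groups, with an SD of 0.08 on the log2(TPM + 1) scale, below that of all but 4.43% of genes, and the SD of Sod1 was 0.09 on this scale.

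Nqo1 had the largest relative difference with radiation among the 5 genes. C had 6.68, 6.95 and 3.98 TPM, and CGy had 6.66, 9.96, 9.04 and 9.03 TPM. N had 7.13, 7.91, 7.30 and 8.38 TPM, and NGy had 9.57, 9.56, 13.96 and 11.7 TPM. A had 4.95, 6.29, 5.54 and 5.99 TPM, and AGy had 8.41, 10.2, 12.4 and 13.2 TPM. Irradiated and unirradiated samples did not overlap with Noggin or with ascorbic acid, and overlapped by 1 CGy sample without either. The means were 8.67 ± 1.41 TPM in CGy against 5.87 ± 1.64 in C, 11.2 ± 2.10 in NGy against 7.68 ± 0.577 in N, and 11.1 ± 2.16 in AGy against 5.69 ± 0.582 in A. The mean of AGy was 94.2% above that of A, and the differences in the other media were 47.8% and 45.8%.

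Catalase and Hmox1 gave no common direction with radiation across the 3 media. Cat was at 49.9, 49.96 and 40.65 TPM in C and at 52.8, 56.1, 51.3 and 57.3 TPM in CGy, so these groups did not overlap. Cat was at 45.4, 51.3, 51.3 and 57.7 TPM in N and at 45.9, 47.7, 52.4 and 54.4 TPM in NGy. In A it was at 49.1, 47.4, 50.98 and 53.0 TPM, and in AGy at 41.4, 62.7, 51.1 and 51.3 TPM. With ascorbic acid the range of A in Cat lay inside that of AGy, and with Noggin most of each group's range was shared. Hmox1 was at 46.3, 37.0 and 36.4 TPM in C and at 67.4, 79.5, 35.3 and 31.3 TPM in CGy. It was at 43.95, 61.2, 50.9 and 64.9 TPM in N and at 45.2, 55.5, 29.9 and 41.3 TPM in NGy. In A it was at 46.6, 57.4, 66.2 and 68.0 TPM, and in AGy at 33.7, 70.6, 67.8 and 62.3 TPM. Irradiated and unirradiated samples of Hmox1 overlapped in every medium. The CGy samples fell into a high and a low pair, and their SD (53.4 ± 23.8 TPM, n = 4) was 44.5% of their mean.

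Averaged over the 3 media in a fit of all 6 groups, limma called 3 of the 5 enzymes higher after 1 Gy at a Benjamini-Hochberg adjusted p of at most 0.05, and 0 lower. Over all 10134 genes tested, 21.6% were called in this contrast, which were 11.1% called higher and 10.5% called lower. Nqo1 was higher by 0.61 on the log2(TPM + 1) scale (SE 0.09, 95% interval 0.41 to 0.80, adjusted p = 0.0004). Sod1 rose by 0.25 (SE 0.04, interval 0.17 to 0.34, adjusted p = 0.000705) and Sod2 by 0.22 (SE 0.04, interval 0.14 to 0.30, adjusted p = 0.00103). The change of Nqo1 exceeded that of 98.8% of genes, and its p ranked 68th. Cat differed by 0.07 (interval −0.06 to 0.20, adjusted p = 0.431) and Hmox1 by −0.04 (interval −0.38 to 0.30, adjusted p = 0.880). The median of the 5 changes was 0.22, and that of all genes 0.01. With the fold change of at least 1.5 that the study also required, only Nqo1 of the 5 was called, beside 2.17% of all genes. With MO2 included in C, Sod1 was not called (0.19, adjusted p = 0.136).

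The same comparison was made within each medium. In NGy against N, 3 of the 5 enzymes were called higher by limma, where 14.1% of 9765 genes were called and 6.58% called higher. Nqo1 rose by 0.48 (SE 0.12, adjusted p = 0.0368), Sod1 by 0.33 (SE 0.06, adjusted p = 0.0173) and Sod2 by 0.25 (SE 0.06, adjusted p = 0.0284). Hmox1 differed by −0.37 (interval −0.82 to 0.07, adjusted p = 0.220) and Cat by −0.03 (adjusted p = 0.820). When the TPM of each sample were rescaled to the same total over the genes listed, Sod1 alone was called here (0.26, adjusted p = 0.0369), with an adjusted p of 0.0582 for Nqo1 and 0.0704 for Sod2. After quantile normalization, Sod1 lost its call (0.20, adjusted p = 0.0734) and the other 2 kept theirs. Nqo1 was not called without the filter on low values (adjusted p = 0.0507) or with all 6 groups in the fit (adjusted p = 0.0552). The totals of TPM over the genes listed were 650049 to 655264 TPM in NGy and 615930 to 628348 TPM in N, and 643344 to 655289 TPM in AGy and 615330 to 622464 TPM in A. Without sample MO19, the NGy sample with the highest Nqo1 and Sod1, none of the 3 was called (adjusted p of 0.0641 for Nqo1, 0.0515 for Sod1 and 0.0793 for Sod2). Without MO5, MO6, MO8 or MO20 only Sod1 was called, without MO7 Nqo1 lost its call, and without MO17 Sod2 did.

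In CGy against C, limma called 0 of the 5 enzymes, beside 0.0204% of 9782 genes, and 1 of the 5 (Nqo1) had an unadjusted p under 0.05, as had 1433 genes. Nqo1 differed by 0.51 (SE 0.20, interval 0.04 to 0.98, adjusted p = 0.331), Cat by 0.22 (adjusted p = 0.356), and Sod1 and Sod2 by 0.17 each (adjusted p of 0.387 and 0.358). Hmox1 differed by 0.31 (interval −0.48 to 1.10, adjusted p = 0.639), and by 0.08 without MO14B and 0.52 without MO16. Without the control MO4, the difference was 0.30 for Nqo1 and 0.12 for Cat, and without MO1 it was 0.11 for Sod1. With MO2 included in C, Sod1 differed by −0.02, Nqo1 by 0.33, Sod2 by 0.27 and Cat by 0.70, with 0 calls. In AGy against A, 0 of the 5 and 0% of 9859 genes were called, and Nqo1, Sod1 and Sod2 had an unadjusted p under 0.05, as had 1256 genes. Nqo1 differed there by 0.84 (SE 0.14, interval 0.52 to 1.15, adjusted p = 0.129), and its unadjusted p ranked 14th of all genes. Sod1 differed by 0.25 (adjusted p = 0.295) and Sod2 by 0.24 (adjusted p = 0.328), Hmox1 by −0.06 (adjusted p = 0.926) and Cat by 0.03 (adjusted p = 0.941). After rescaling to equal totals, 1 of the 5 had an unadjusted p under 0.05 in this pair. The authors' batch-corrected table keeps the group means of these enzymes on the log2 scale. Summed over groups, it has less spread within them. In this table Nqo1 was called in both pairs (adjusted p of 0.0145 and 0.0232) and Cat in CGy against C (adjusted p = 0.0248). The share of genes called after this correction was 30.4% in CGy against C and 2.97% in AGy against A.

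By overlap of samples alone, 3 of the 5 enzymes were higher without overlap in each of the 3 radiation pairs. These were Sod1, Sod2 and Cat in CGy against C, where this held for 8.76% of 10134 genes. They were Nqo1, Sod1 and Sod2 in NGy against N, where it held for 10.9%, and the same genes in AGy against A, where it held for 3.72%. Sod1 and Sod2, 2 of the 5, were higher without overlap in all 3 pairs, as were 0.444% of genes. Control MO2 was left out of these counts and shares. Its Sod1 (468 TPM) lay above the highest CGy sample (329.5 TPM), so with MO2 in C only Sod2 would be higher without overlap in all 3 pairs.

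**Figure D2:**
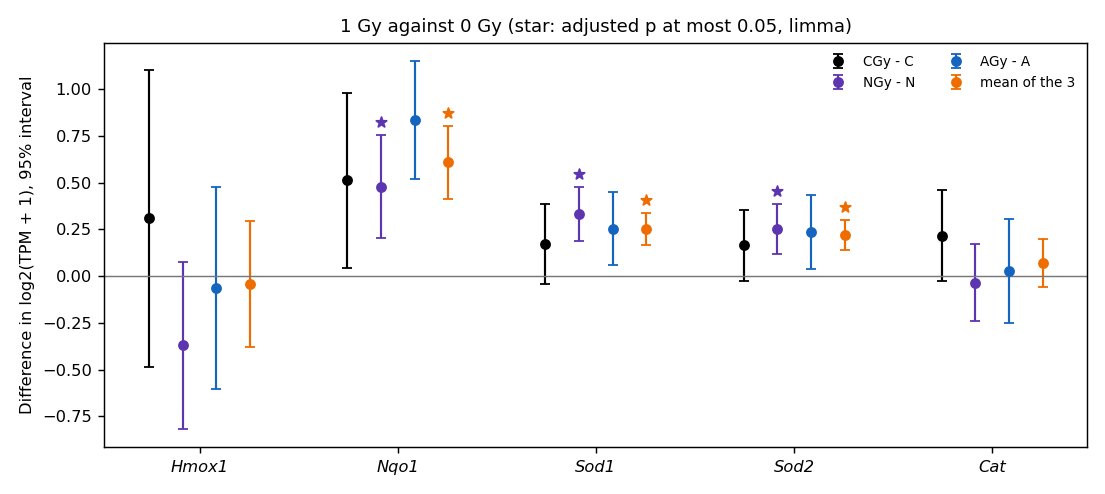
The plot gives the difference in log2(TPM + 1) between 1 Gy and 0 Gy for each enzyme in each medium and as the mean of the 3, with 95% intervals from limma. Stars mark an adjusted p of at most 0.05: Nqo1, Sod1 and Sod2 carry one in NGy against N and in the mean of the 3 media, and no interval of Hmox1 excludes 0.

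The response to radiation was not shown to differ with the compound for any of the 5 enzymes. In the test of radiation by ascorbic acid, limma called 0 of 5, beside 0.00996% of genes, and none of the 5 had an unadjusted p under 0.05. The difference in response was largest in size for Hmox1 (−0.37, SE 0.43, interval −1.31 to 0.56, adjusted p = 0.757) and Nqo1 (0.32, interval −0.21 to 0.86, adjusted p = 0.671). For Cat it was −0.19, for Sod1 0.08 and for Sod2 0.07, with adjusted p of 0.693 to 0.820. These intervals leave room for a response of Nqo1 with ascorbic acid that was 0.86 larger or 0.21 smaller on the log2 scale. In the test of radiation by Noggin, 0 of 5 and 0.0100% of genes were called, and none of the 5 had an unadjusted p under 0.05. Hmox1 differed by −0.68 (interval −1.55 to 0.19, adjusted p = 0.390) and Cat by −0.25 (interval −0.54 to 0.04, adjusted p = 0.346). Nqo1 differed by −0.03, Sod1 by 0.16 and Sod2 by 0.09, with adjusted p of 0.404 to 0.950. In the batch-corrected table Hmox1 and Cat were called (adjusted p of 0.0397 and 0.0493), as were 2394 of 9958 genes. With MO2 included in C, the difference in response of Cat was −0.67 with ascorbic acid and −0.73 with Noggin, and it was not called.

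Without radiation, Hmox1 was the enzyme that differed most with ascorbic acid, though the difference did not pass the test over all genes. All 4 A samples (46.6 to 68.0 TPM) lay above the controls MO1, MO3 and MO4 (36.4 to 46.3 TPM); the nearest samples were less than 1 TPM apart. The means were 59.6 ± 9.78 TPM (n = 4) and 39.9 ± 5.55 TPM (n = 3), a difference of 0.56 on the log2 scale (SE 0.16, interval 0.19 to 0.93, adjusted p = 0.264). Hmox1 was the only one of the 5 to be higher without overlap, where 8.54% of genes were. Control MO2, at 55.8 TPM, lay within the range of A, and with it in C the difference was 0.44. limma called 0 of the 5 in A against C, beside 0.0203% of genes, and only Hmox1 had an unadjusted p under 0.05, as had 1194 genes. With MO2 included in C, or with all 6 groups in the fit, 0 of the 5 had one. The other 4 enzymes differed by −0.01 (Nqo1), 0.04 (Sod1), 0.13 (Sod2) and 0.10 (Cat), with adjusted p of 0.605 to 0.989.

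After radiation, Sod2 was the only one of the 5 enzymes to differ at an unadjusted p under 0.05 between AGy and CGy. limma called 0 of the 5 there, beside 12.4% of genes, and 3173 genes had an unadjusted p under 0.05. Sod2 was at 39.1 TPM in AGy and 34.0 in CGy, a difference of 0.20 (SE 0.08, interval 0.004 to 0.39, adjusted p = 0.147). In the batch-corrected table it was called (adjusted p = 0.039), as were 37.9% of genes. After rescaling to equal totals, 0 of the 5 enzymes had an unadjusted p under 0.05. The same held without MO13, MO14B, MO15, MO16, MO22, MO23 or MO24. After quantile normalization, or without MO21, 2 enzymes had one. The groups met, since the lowest AGy sample had 35.31 TPM and the highest CGy sample 35.34 TPM. Nqo1 differed by 0.31 (interval −0.05 to 0.67, adjusted p = 0.209), Sod1 by 0.13, Hmox1 by 0.19 and Cat by −0.09, with adjusted p of 0.351 to 0.746 for the last 3. For Hmox1 the range of AGy lay inside that of CGy.

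Over both doses, Sod2 was higher with ascorbic acid by 0.16 (SE 0.05, interval 0.04 to 0.28, adjusted p = 0.0659) and Hmox1 by 0.37 (SE 0.22, interval −0.09 to 0.84, adjusted p = 0.266). Nqo1 differed by 0.15, Sod1 by 0.08 and Cat by 0.01, with adjusted p of 0.352 to 0.962. limma called 0 of the 5, beside 13.8% of genes, and only Sod2 had an unadjusted p under 0.05, as had 3034 genes. Sod2 was called under some other processing: with no filter on low values (adjusted p = 0.0453), after quantile normalization (0.0322), with all 6 groups in the fit (0.0217), and without sample MO21 (0.0415). Among 25 settings, the main fit and the batch-corrected table included, it was called in 5, with an adjusted p of up to 0.141. In the batch-corrected table Sod2 (adjusted p = 0.00948) and Hmox1 (adjusted p = 0.00911) were called, as were 38.2% of genes. The titles of the samples in the labels hold a running number, which is not the MO number of the columns. In these titles the samples with ascorbic acid carry lower numbers than all those without it but 1 control. What these numbers mark is not stated, and ascorbic acid cannot be told apart from whatever goes with them.

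Noggin was set against the untreated spheres in the same way. At 0 Gy, Nqo1 was at 7.13 to 8.38 TPM in N against 3.98 to 6.95 in C, and Sod2 at 24.9 to 28.2 TPM against 29.8 to 30.9. So Nqo1 was higher and Sod2 lower without overlap, where 12.7% of genes did not overlap in either direction and 7.48% were higher. MO2, at 10.2 TPM of Nqo1 and 22.6 TPM of Sod2, lay beyond the range of N on the other side of the controls used. limma called 0 of the 5 in N against C, beside 0.0102% of genes, and 1181 genes had an unadjusted p under 0.05. Among the 5 enzymes this was so for Hmox1 alone, which differed by 0.45 (interval 0.08 to 0.82, adjusted p = 0.365). With MO2 included in C, or without MO4, MO6 or MO8, 0 of the 5 had an unadjusted p under 0.05. Nqo1 differed by 0.37 (adjusted p = 0.428, and 0.0138 in the batch-corrected table, which called 14.6% of genes), and Sod2 by −0.18 (adjusted p = 0.416). Sod1 differed by −0.03 (adjusted p = 0.877) and Cat by 0.13 (adjusted p = 0.607). Without the control MO4 the difference of Nqo1 was 0.15.

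After radiation, none of the 5 enzymes was separated between NGy and CGy. limma called 0 of the 5, beside 1.05% of genes. None of the 5 had an unadjusted p under 0.05, and 1728 genes did. Nqo1 differed by 0.33 (interval −0.01 to 0.67, adjusted p = 0.296), Sod1 by 0.13, Sod2 by −0.09, Cat by −0.12 and Hmox1 by −0.23. Over both doses Nqo1 was higher with Noggin by 0.35 (SE 0.12, interval 0.09 to 0.60, adjusted p = 0.161) and Sod2 lower, at −0.14 (SE 0.04, interval −0.23 to −0.05, adjusted p = 0.132). Hmox1 differed by 0.11, Sod1 by 0.05 and Cat by 0.01, with adjusted p of 0.670 to 0.971. Nqo1 and Sod2 had an unadjusted p under 0.05, as had 1643 genes, and limma called 0 of the 5, beside 1.68% of genes. In the batch-corrected table these 2 were called (adjusted p of 0.00379 for Nqo1 and 0.0174 for Sod2), as were 19.7% of genes. Sod2 thus was listed above the untreated groups with ascorbic acid and below them with Noggin, in values that did not pass in the uncorrected table. The comparisons with C, and those with CGy, share the same control samples.

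**Figure D3:**
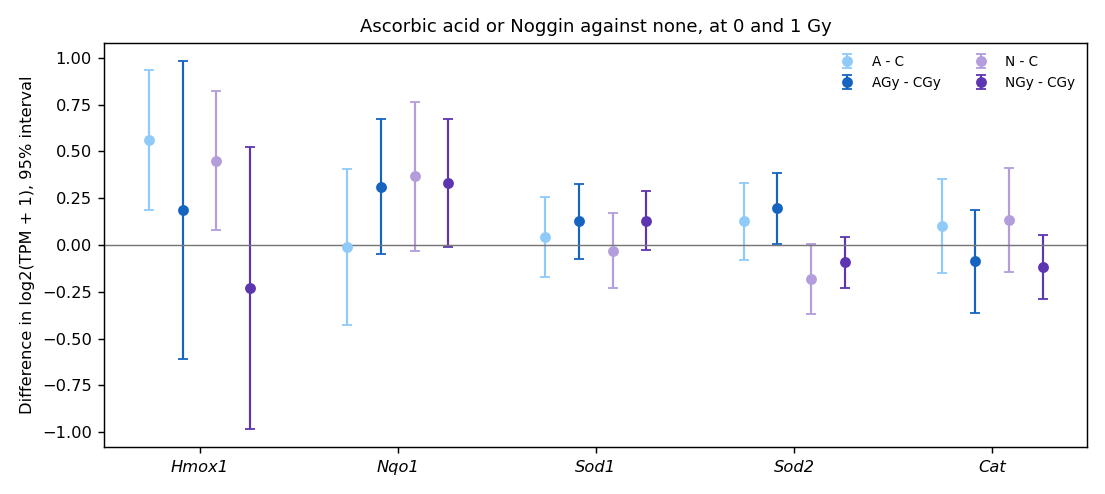
The plot gives the difference in log2(TPM + 1) for ascorbic acid or Noggin against no compound, at 0 Gy and at 1 Gy, with 95% intervals from limma. No adjusted p was at most 0.05, the widest intervals are those of Hmox1 at 1 Gy, and the points of Sod2 lie above 0 with ascorbic acid and below 0 with Noggin.

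Put in order of their means, the groups of Sod1 ran N, C, A, CGy, AGy and NGy, from 267 to 337 TPM, with all 3 unirradiated groups below all 3 irradiated ones. Each neighbour in this order overlapped the next. For Nqo1 the order was A, C, N, CGy, AGy and NGy, and only C and N did not overlap. For Sod2 it was N, C, NGy, A, CGy and AGy, and only N and C did not overlap, so the irradiated NGy lay below the unirradiated A. For Hmox1 the order was C, NGy, CGy, N, AGy and A, and for Cat C, NGy, A, N, AGy and CGy, with every neighbour overlapping. The ratio of Sod1 to Sod2 in a sample averaged 9.06 ± 0.547 in C and 9.06 ± 0.317 in CGy. It was 10.1 ± 0.611 in N and 10.6 ± 0.523 in NGy, and 8.55 ± 0.818 in A and 8.65 ± 1.21 in AGy. The ratio thus stayed within the spread of a group between doses, while its means were highest with Noggin and lowest with ascorbic acid.

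Hmox1 varied within groups more than the other 4 enzymes did. Its SD within groups was 0.41 on the log2(TPM + 1) scale, above that of 88.6% of genes, against 0.23 for Nqo1 and 0.14 for Cat. Differences between groups made up 25.2% of the sum of squares of Hmox1 and 19.3% of that of Cat. The shares were 74.9% for Nqo1, 76.2% for Sod1 and 86.3% for Sod2. Means of few samples scatter, so some share falls between groups even where they do not differ, and its size was not estimated. Within groups, Hmox1 went with the level of the median gene of the sample. Of 33 pairs of samples of the same group, the sample with the higher median had the higher Hmox1 in 26, a count above that of 95.02% of genes. The median count over genes was 17, and it was 21 for Cat, 19 for Sod2, 14 for Nqo1 and 8 for Sod1. Only 1.77% of genes had a lower count than Sod1, so within groups Sod1 mostly ran against the median. The medians of N (2.95 to 3.13 TPM) all lay above those of NGy (2.58 to 2.88 TPM) and those of C (2.63 to 2.91 TPM). Those of C and CGy overlapped, as did those of A and AGy. In CGy the samples MO13 and MO14B, with 67.4 and 79.5 TPM of Hmox1, had medians of 2.90 and 3.02 TPM. MO15 and MO16, with 35.3 and 31.3 TPM, had medians of 2.57 and 2.75 TPM. The AGy sample MO21, the lowest of its group in Hmox1, Nqo1, Sod2 and Cat and the highest in Sod1, also had the lowest median, 2.58 TPM. The part of the level of the median gene in the Hmox1 and Sod1 comparisons was not tested. The authors' batch correction removed 73.6% of the sum of squares of Hmox1 within groups, 59.7% of that of Cat, 57.2% of that of Nqo1, 40.0% of that of Sod1 and 13.3% of that of Sod2.

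**Figure D4:**
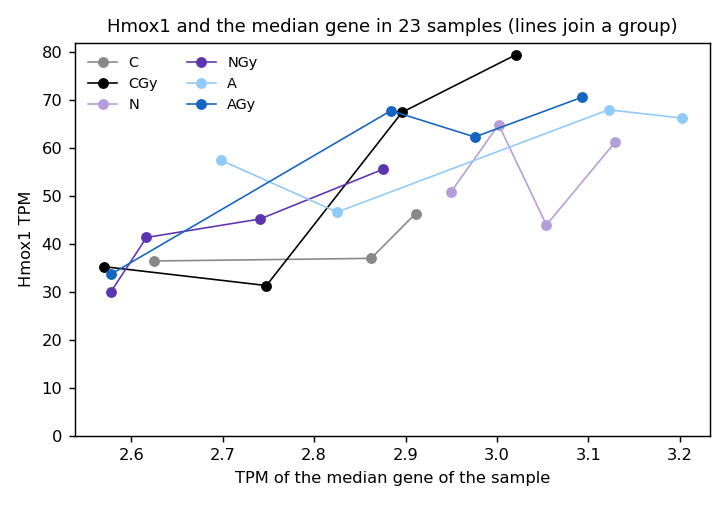
Hmox1 TPM is plotted against the TPM of the median gene in the same sample for the 23 samples other than MO2, with lines that join the samples of a group in order of the median. The low CGy pair and MO21 of AGy lie at medians of 2.57 to 2.75 TPM, with 31.3 to 35.3 TPM of Hmox1, and the samples over 60 TPM lie at medians of 2.88 TPM and above.

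Patterns over samples were compared as the root mean square difference between genes, each centred on its own mean of log2(TPM + 1) over 23 samples. By this measure Sod1 and Sod2 were nearest to each other among the 5 enzymes (0.151), and Hmox1 and Nqo1 were farthest apart (0.566). Genes were not brought to the same SD, so the measure also follows how much each gene varied. The SD over 23 samples was 0.42 for Hmox1 and 0.40 for Nqo1, against 0.16 for Sod1, 0.18 for Sod2 and 0.14 for Cat. Of the genes compared, 2.67% were nearer to Nqo1 than Sod1 was, and 6.99% were nearer to Sod1 than Sod2 was. A share of 83.1% was nearer to Hmox1 than Nqo1 was. The gene nearest to Hmox1 was ENSRNOG00000021604 at 0.195, where the median over 10133 genes was 0.459. The gene nearest to Nqo1 was ENSRNOG00000018371 at 0.215, where the median was 0.440. All genes share the same libraries and scaling, so these distances are descriptions.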

How the data were processed

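Bulk RNA-seq of 24 rat NSp samples (6 groups of 4) was analysed from 2 tables deposited by the authors. The first holds TPM, which the authors estimated with kallisto. The submitters' processing notes also name STAR 2.6.1, and the study names genome build Rn7. The second holds a score without MO2, deposited after batch correction of TPM by the authors: corrected TPM was had by doubling the value and taking away 1. The correction keeps group means and reduces the spread within groups, so the TPM table was tested. Columns carry the study's sample identifiers, whose groups follow the study, and no replicate number. TPM were taken as log2(TPM + 1), and genes whose mean reached 1 TPM in a group compared were fitted with limma 3.58.1 in R 4.3.3 (lmFit, eBayes, Benjamini-Hochberg over all genes tested). A gene was called at an adjusted p of at most 0.05. Pairs were fitted on their own samples. All pairs of groups were fitted, of which 7 are described. The test was checked on simulated data with independent noise in each gene. These data lack variation shared by the genes of a sample, so the check does not cover it. Figures were drawn with matplotlib 3.10.9. Depth is unknown.

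All 5 genes are named in every comparison. They and the lists were chosen with earlier results of these data known. Of the 16478 identifiers, 0 could be paired with a symbol in the reference used, so other antioxidant genes and cell type markers were not analysed here, and the cell type of the labels was not checked. Alternatives were the corrected table, MO2 included, a pseudocount of 0.1, no filter, quantile normalization, rescaled TPM, a variance trend, all 6 groups in 1 fit, each sample left out and a 1.5-fold threshold.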

Additional observations from a re-analysis of the deposited data

Results flagged for a closer look

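Of 30 groups (5 enzymes in 6 groups of 4 samples, MO2 included), 2 held a sample whose gap to the nearest other sample divided by the range of the group exceeded the Dixon limit at the 95% level for 4 samples. Chance alone flags about 1 in 20 groups. Both were the control sample MO2. Its Sod1 was 468 TPM, with a gap of 0.846 of the range, and its Sod2 was 22.6 TPM, with a gap of 0.866 of the range. Sod1 was above and Sod2 below the other control samples, so the same sample stood apart in opposite directions in the dismutase genes.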

How the results depend on the processing

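Values are differences in log2(TPM + 1). With all other choices kept, Nqo1 and Sod2 stayed called higher over the 3 media under each alternative table, scaling, pseudocount, filter and sample left out, as did Sod1 except with MO2 included, where it was 0.19. Under a threshold of 1.5-fold, Sod1 (0.25) and Sod2 (0.22) were no longer called, which left 1 call over the 3 media and 0 in NGy against N. Leaving out samples gave 0.54 to 0.65 for Nqo1, 0.23 to 0.27 for Sod1 and 0.20 to 0.23 for Sod2 over the 3 media.

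With MO2 included, C means were 322 TPM for Sod1, 28.3 TPM for Sod2 and 38.0 TPM for Cat, and the median change of all genes in CGy against C was 0.21 in place of 0.05. Sod1 changed sign in CGy against C (−0.024), A against C (−0.15), ascorbic acid over both doses (−0.013) and Noggin over both doses (−0.047). Sod2 changed sign in both interactions (−0.030 with ascorbic acid, −0.011 with Noggin), and Nqo1 in that with Noggin (0.15). After rescaling to equal totals, Cat changed sign in AGy against A (−0.038), ascorbic acid (−0.0025) and Noggin (−0.012) over both doses, Nqo1 did in A against C (0.0032), and 1 enzyme was called in NGy against N. After quantile normalization, Sod1 changed sign in N against C (0.037) and Nqo1 in the interaction with Noggin (0.076), and Sod1 lost its call in NGy against N (0.20), which left 2 calls. Nqo1 lost its call there without a filter and with all 6 groups in the fit.

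Sod2 was called with ascorbic acid over both doses, the 1 call there, without a filter (0.16), after quantile normalization (0.17), with all 6 groups in the fit (0.16) and without MO21 (0.18). It was not called there with MO2 included, a pseudocount of 0.1, rescaled TPM, a variance trend or any other sample left out. With all 6 groups in the fit, 1 enzyme was also called in AGy against A and 1 in AGy against CGy. In the batch-corrected table, the calls numbered 2 in CGy against C, 1 in AGy against A, 1 in AGy against CGy, 1 in N against C, 2 with ascorbic acid over both doses (Hmox1 0.37, Sod2 0.16), 2 with Noggin over both doses (Nqo1 0.35, Sod2 −0.14) and 2 in the interaction with Noggin (Hmox1 −0.68, Cat −0.25). Summed over the 6 groups, that correction reduced the spread within groups of each enzyme. In single groups the spread could rise, as for Hmox1 in C (SD 5.55 TPM before and 8.53 TPM after). The cause of these changes in calls was not tested.

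Leaving out 1 sample at a time gave 0 to 3 calls in NGy against N, where the lowest count was without MO19, and 0 to 1 with ascorbic acid over both doses, where the values of Sod2 ran from 0.14 to 0.18. Signs changed for small differences. Cat ranged from −0.092 to 0.022 in NGy against N, −0.069 to 0.13 in AGy against A, −0.18 to 0.011 in AGy against CGy, −0.041 to 0.056 with ascorbic acid and −0.040 to 0.037 with Noggin over both doses. Hmox1 ranged from −0.17 to 0.18 in AGy against A, −0.028 to 0.43 in AGy against CGy and −0.12 to 0.039 over the 3 media. Nqo1 ranged from −0.23 to 0.11 in A against C and −0.16 to 0.18 in the interaction with Noggin, and Sod1 from −0.015 to 0.075 in A against C and −0.087 to 0.0024 in N against C.

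Without MO4, Nqo1 was 0.30 in CGy against C and 0.15 in N against C. Hmox1 ranged from 0.08 to 0.52 in CGy against C and −0.50 to −0.21 in NGy against N.

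No paired analysis was possible because the columns carry no replicate numbers. Groups of 3 or 4 samples, unknown read depth and 1 dose at 1 time, days after radiation, set the limits of these comparisons.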
